A study of Mus musculus with 6 samples.

Results

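The keratins of the epidermis were examined in cultured keratinocytes of Gpx4 knockout (KO) and control mice. They comprise 10 genes, chosen by gene symbol: Krt5 and Krt14 of the basal layer, Krt1, Krt10, Krt2, Krt77, Krt78 and Krt80 of the suprabasal layers or of differentiating epithelia, and Krt4 and Krt13 of internal stratified epithelia. Of these, 3 encode type I keratins (Krt14, Krt10 and Krt13) and 7 encode type II keratins. The array measured them with 15 probe sets that were annotated to a single gene, out of 45037 probe sets tested, where probe sets annotated to 1 gene covered 18193 genes. Krt14 and Krt13 had 3 probe sets each, Krt4 had 2, and the other 7 genes had 1.

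RNA came from primary keratinocytes isolated from the skin of newborn mice of a mixed C57BL6/FVB background. The Gpx4 KO pools came from mice in which cre driven by the keratin-14 promoter (K14-cre), active in basal keratinocytes, had removed Gpx4, and the control pools came from control mice of the same litters. There were 3 litters, A, B and C, with 1 pool of cells per genotype and litter, so 3 Gpx4 KO arrays were compared with 3 control arrays, paired by litter. All media, for knockout and control cells alike, held 100 nM sodium selenite. The labels do not say which alleles the control mice carried, how many animals a pool held or which share of the knockout cells had recombined. Gpx4 encodes a selenium-containing peroxidase that reduces lipid hydroperoxides in membranes, and the promoter that drives the cre is that of Krt14, one of the genes described here.

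Keratins are the intermediate filament proteins of epithelial cells. A filament is built from heterodimers of an acidic type I and a basic type II keratin, so each keratin needs a partner of the other type. Basal keratinocytes make keratin pairs of Krt5 and Krt14, and cells that leave the basal layer begin to make Krt1 and Krt10, which is the textbook sign of commitment to terminal differentiation. The filaments are anchored to desmosomes between cells and to hemidesmosomes at the basement membrane.

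Levels are given as quantile-normalized intensities, a linear brightness without a unit that is comparable between arrays for 1 probe set and not between probe sets. Changes are log2 differences, Gpx4 KO minus control, of intensity + 16; the added 16 shrinks the change of dim genes. They were fitted by limma with litter as a block, and adjusted p-values are limma's, by the Benjamini-Hochberg method over all 45037 probe sets. The threshold was 0.05, and ± beside a log2 change is its standard error. The targeted gene was lower in the KO pools of all litters: the brighter of the 2 Gpx4 probe sets read 212, 260 and 216 in KO litters A, B and C, against 497, 551 and 536 in the controls (log2 change -1.15 ± 0.091, adjusted p = 0.0206). Under 17 alternative settings Gpx4 was always lower in the knockout and passed in 7. Among those in which Gpx4 did not pass were the fits without litter A, without litter B and with the intensities as deposited (adjusted p = 0.153, 0.278 and 0.122). The other Gpx4 probe set had an adjusted p of 0.063. On the deposited scale the mean intensity of an array, trimmed at both ends, was 73.5 to 92 in the KO arrays, against 72.8 to 114.3 in the controls, and the control of litter C was the array at 114.3. Over all probe sets, the control of litter C correlated with the 3 KO arrays at r = 0.977 to 0.983, and with the controls of litters A and B at 0.975 and 0.978 (across probe sets, which are not replicates). The controls of litters A and B correlated with each other at r = 0.988.

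Of the 10 keratins, Krt10 was the 1 that passed the test, with lower levels in Gpx4 KO cells. None rose. Of all probe sets 0.42% passed at this threshold, with 0.262% lower and 0.158% higher in the knockout. At an unadjusted p under 0.05 there were 4 keratins, Krt10, Krt1, Krt80 and Krt77, all with lower values in the knockout, where 14.6% of all probe sets reached that level. The median log2 change of the 10 genes was 0.0039, beside 0.0018 over all probe sets tested. With the intensities scaled as deposited these medians were -0.14 and -0.066. The groups did not overlap, with every KO array below every control array, for 3 keratins (Krt10, Krt77 and Krt80), and the same was true of 9.43% of all probe sets.

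**Figure D1:**
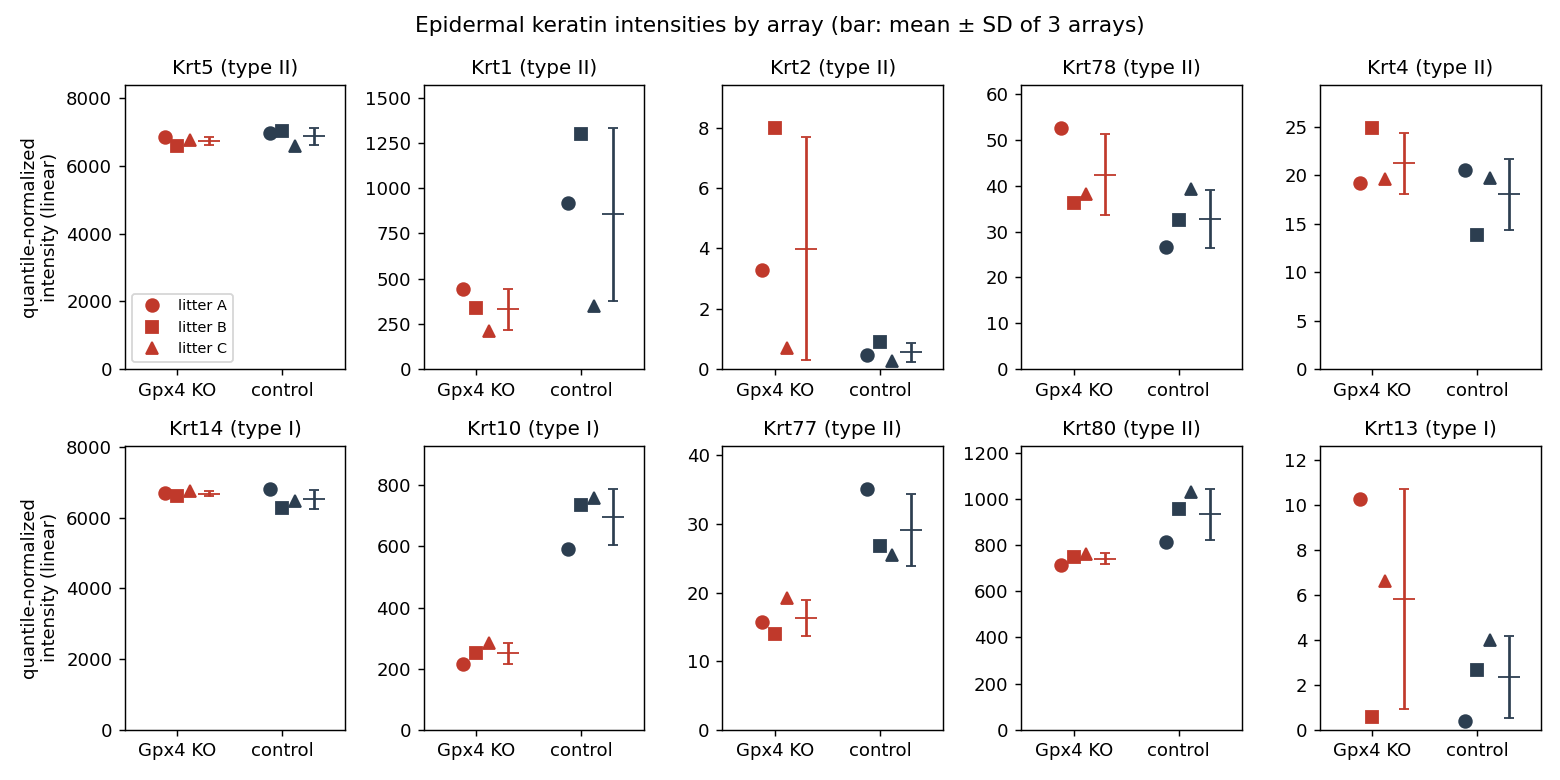
Quantile-normalized intensity (linear axis from 0, each panel with its own scale) of the brightest probe set of each keratin in the 3 Gpx4 KO arrays (left, red) and the 3 control arrays (right, dark), with symbols for litters A, B and C and a bar for the mean ± SD of 3 arrays. Krt10 lies between 215 and 284 in the KO arrays and between 590.4 and 760.4 in the controls, while Krt5 and Krt14 stand near the same height in all 6 arrays.

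The basal pair was at the bright end of the arrays and differed little between genotypes. Krt5, the type II keratin of the basal layer, read 6849, 6596 and 6779 in the KO pools of litters A, B and C, against 6974, 7049 and 6596 in the control pools. Its type I partner Krt14 read 6692, 6607 and 6740.15 in KO pools, against 6808, 6278 and 6478 in controls. The 2 groups overlapped for both genes. The log2 change was -0.03 ± 0.067 for Krt5 (95% interval -0.19 to 0.13, adjusted p = 0.898) and 0.04 ± 0.066 for Krt14 (-0.12 to 0.19, adjusted p = 0.861). The sign of Krt14 turned with the scaling, to -0.12 as deposited and -0.06 with the arrays shifted to a common median, and neither value passed. The second Krt14 probe set, of a class that can also bind related sequences, read 5829 to 6407 in KO pools, against 5435 to 6363 in controls (0.05 ± 0.084). The third, a dim one, read 89.8 to 108.6 in KO pools, against 98.45 to 122.5 in controls (-0.10 ± 0.12). On the deposited scale between 8 and 18 probe sets of an array were brighter than Krt5 and between 12 and 27 were brighter than Krt14. Whether signals this close to the top of the scale are compressed was not tested.

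Krt10, the type I keratin of the spinous layer, fell in the knockout of every litter. Its probe set read 215, 252 and 284 in the KO pools of litters A, B and C, against 590.4, 737 and 760.4 in the control pools. The highest KO value was below the lowest control value. The mean was 250.2 ± 34.4 in KO pools and 696 ± 92.2 in control pools (SD, n = 3 each), which is a log2 change of -1.42 ± 0.084, or 2.67-fold lower (limma adjusted p = 0.00922). The changes within litters A, B and C were -1.39, -1.49 and -1.37, so the litters differed by far less than the change itself. Within a genotype the highest array was 1.32 times the lowest in KO pools and 1.29 times in controls. In a culture, fewer cells that make Krt10 and less Krt10 RNA per cell cannot be told apart.

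Krt1, the type II partner of Krt10, had lower values in the knockout of every litter but spread widely. It read 442, 335 and 211 in the KO pools of litters A, B and C, against 917, 1299 and 351 in the control pools. The groups overlapped, because the control of litter C lay below the KO pool of litter A. The mean was 329 ± 115 in KO pools and 855 ± 477 in control pools (SD, n = 3 each), and the log2 change of -1.21 ± 0.22 missed the threshold (95% interval before adjustment -1.73 to -0.68, adjusted p = 0.0836). Within litters A, B and C the changes were -1.03, -1.91 and -0.69. The controls spanned 3.7-fold for Krt1, against 1.29-fold for Krt10, and the control of litter C, low for Krt1, was the highest of the controls for Krt10. Without litter C Krt1 passed at -1.47 (adjusted p = 0.00777), and without the control array of litter C alone, with no litter block, it passed at -1.74 (adjusted p = 0.0199). It also passed with the arrays shifted to a common median (-1.34, adjusted p = 0.00302), with a pseudocount of 1 (-1.24, adjusted p = 0.0435) and without the 40% dimmest probe sets (adjusted p = 0.0238). Krt1 thus passed in 5 of 17 alternatives, each with 601 to 2773 calls over all probe sets, beside 189 in the reported setting. In the rest it did not pass, for example without the litter block, without litter A or without litter B (limma adjusted p = 0.308, 0.341 and 0.430).

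**Figure D2:**
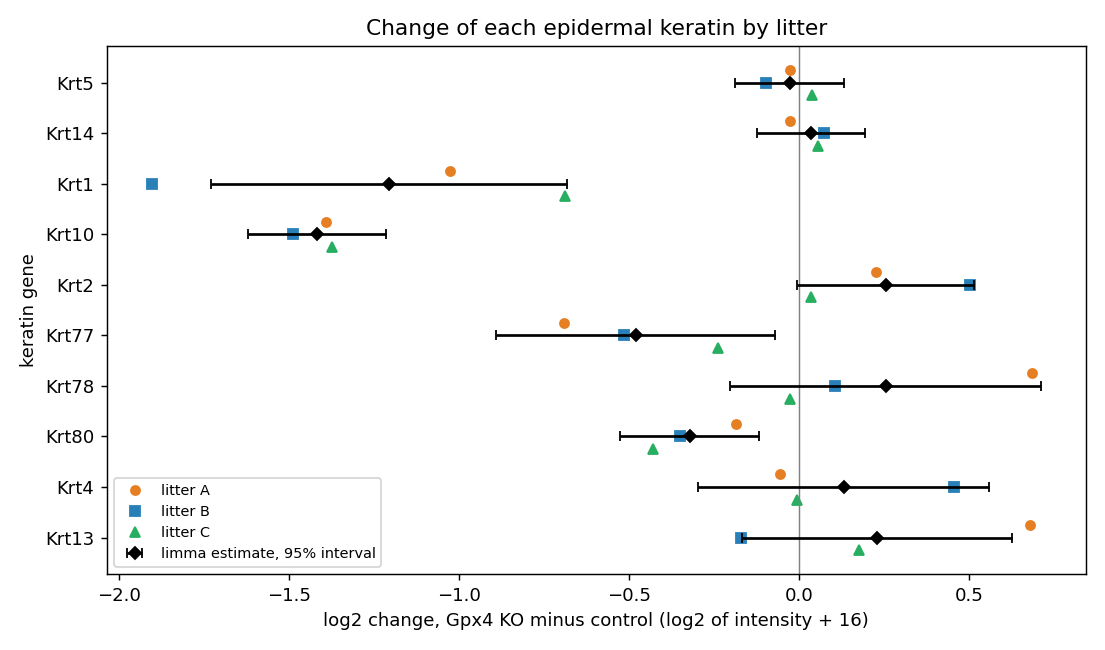
Log2 change (Gpx4 KO minus control, horizontal axis, log2 of intensity + 16) of each keratin gene (vertical axis) within litters A, B and C (coloured symbols) and as the limma estimate with its unadjusted 95% interval (black). The 3 litters of Krt10 lie close together near -1.4, those of Krt1 spread from -1.91 to -0.69, and Krt5 and Krt14 lie near 0.

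Whether Krt10 passed the test depended on the processing, while its direction did not. Over 17 alternative settings its log2 change lay between -1.61 and -1.27, always lower in the knockout, and it passed in 9 of them. It did not pass with the intensities scaled as deposited (-1.61, adjusted p = 0.0622), without litter A (-1.43, adjusted p = 0.0969), without litter B (-1.38, adjusted p = 0.179) or without the intensity trend in the variance (adjusted p = 0.0618). Left out 1 at a time with no litter block, the KO array of litter A, B or C or the control array of litter B also ended the call (adjusted p = 0.0697, 0.128, 0.0527 and 0.112). Without litter C the adjusted p was 0.000511.

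**Figure D3:**
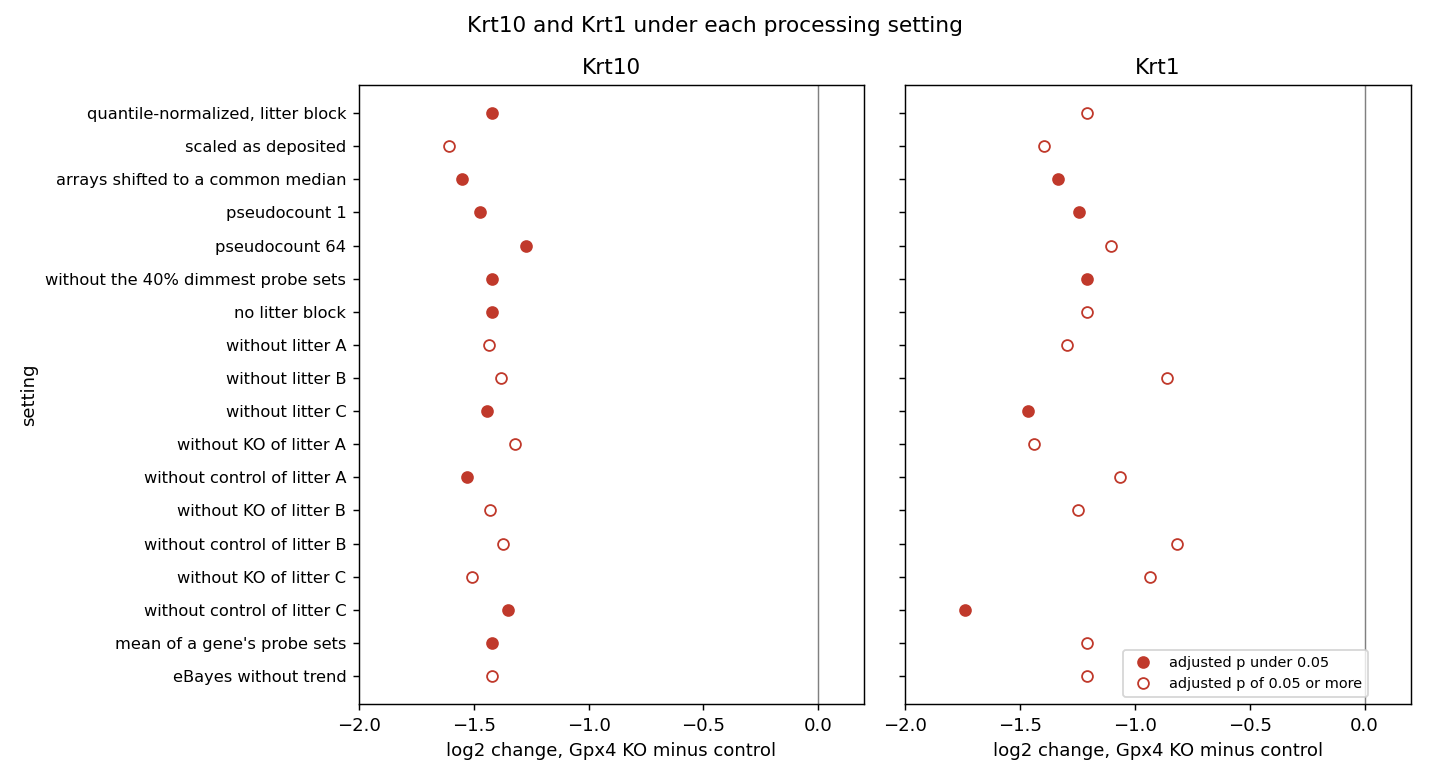
Log2 change (Gpx4 KO minus control, horizontal axis) of Krt10 (left) and Krt1 (right) under the reported setting (top row) and 17 alternatives (rows), with filled circles for adjusted p under 0.05 and open circles for the rest. Every point lies below 0. The Krt10 values stay between -1.61 and -1.27, whereas the Krt1 values range from -1.74 to -0.82.

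The start regions of 3 of these genes are printed because Krt10 fell, Krt77 had KO values below all control values, and Krt5 differed little. Each window holds 250 bases before and 50 bases from the annotated start, 5′ to 3′ on the minus strand, from RefSeq on GRCm38.p6. Windows were listed for 7 of the 10 keratins. The Krt5 and Krt77 windows include the upstream end of the listed gene, while the Krt10 window lies inside its gene span (chr11:99385254-99397449). Capitals mark matches, on both strands, to TATAAA and to CACCC, the core of the sites that Krüppel-like factors bind.
Krt10, chr11:99389315-99389614: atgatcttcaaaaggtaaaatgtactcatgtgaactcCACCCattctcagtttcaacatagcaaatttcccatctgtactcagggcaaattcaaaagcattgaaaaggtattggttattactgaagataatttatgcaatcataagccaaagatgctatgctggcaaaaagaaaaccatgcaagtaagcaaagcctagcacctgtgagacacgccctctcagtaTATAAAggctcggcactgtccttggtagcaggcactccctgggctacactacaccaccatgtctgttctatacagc
Krt77, chr15:101869656-101869955: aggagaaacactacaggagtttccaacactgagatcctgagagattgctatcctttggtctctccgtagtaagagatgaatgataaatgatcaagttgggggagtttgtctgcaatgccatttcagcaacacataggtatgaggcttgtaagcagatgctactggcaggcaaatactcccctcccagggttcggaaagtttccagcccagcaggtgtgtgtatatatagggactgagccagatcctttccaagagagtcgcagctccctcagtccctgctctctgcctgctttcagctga
Krt5, chr15:101712856-101713155: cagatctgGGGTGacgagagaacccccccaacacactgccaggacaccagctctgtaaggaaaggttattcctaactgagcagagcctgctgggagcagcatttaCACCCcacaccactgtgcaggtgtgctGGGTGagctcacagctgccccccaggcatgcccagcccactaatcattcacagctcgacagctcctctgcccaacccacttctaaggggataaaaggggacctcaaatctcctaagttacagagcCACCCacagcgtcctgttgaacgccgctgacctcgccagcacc
TATAAA was found in the Krt10 window, 26 bases before the start, and in neither of the others. It was present in 13.6% of all 32851 windows. CACCC matched once in Krt10, 4 times in Krt5 and not in Krt77, and occurred in 57.5% of all windows. The motifs TGANTCA (AP-1, in 7.8% of all windows) and GCCNNNGGC (AP-2, in 16.6%) matched in none of these 3. These matches describe letters in the windows, and a motif that is missing from a window says nothing about the factor.

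The remaining type II keratins of the upper epidermis were dim or differed less. Krt77, a keratin related to Krt1 and described in the suprabasal epidermis of mice, read 15.7, 14 and 19.1 in the KO pools of litters A, B and C, against 35.1, 26.8 and 25.4 in the control pools. All KO values were lower than all control values, but the gene was close to the brightness of the dimmer part of the array. Its log2 change was -0.48 ± 0.17 and did not pass (adjusted p = 0.276). By litter it was -0.69 in A, -0.51 in B and -0.24 in C. Krt2, which marks the upper layers of some body sites in mice, read 0.68 to 7.98 in KO pools, against 0.27 to 0.9 in controls. Its probe set was under an intensity of 16 on all 6 arrays, so no fold is given (log2 change 0.26 ± 0.11, adjusted p = 0.348).

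Krt80, a type II keratin that in human epithelia lies close to desmosomes, was bright in both groups. It read 714, 747 and 760.05 in the KO pools of litters A, B and C, against 813, 957 and 1029 in the control pools. The KO values were all lower than the control values and lay within 1.06-fold of each other. The log2 change was -0.32 ± 0.085, or 1.25-fold lower, and did not pass (adjusted p = 0.167). In litters A, B and C it was -0.18, -0.35 and -0.43, and over the alternatives it lay between -0.49 and -0.25 with no call. Krt78, found in differentiating stratified epithelia, read 52.6, 36.3 and 38.3 in KO pools, against 26.6, 32.6 and 39.3 in controls. The groups overlapped, and the log2 change of 0.26 ± 0.19 (adjusted p = 0.598) came mainly from litter A (0.69, beside 0.11 and -0.03 in litters B and C).

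The pair of the internal epithelia, Krt4 and Krt13, stayed near the bottom of the scale in both genotypes. The brighter Krt4 probe set read 19.2, 24.9 and 19.6 in KO pools, against 20.6, 13.8 and 19.75 in controls, with overlapping groups (log2 change 0.13 ± 0.18, adjusted p = 0.794). The other Krt4 probe set read 4.8 to 16 in KO pools, against 9.93 to 19.75 in controls, and had the opposite sign (-0.31 ± 0.20), so the mean of both gave -0.09. All 3 probe sets of Krt13 were under 16 on all 6 arrays. The brightest read 10.25, 0.57 and 6.62 in KO pools, against 0.37, 2.65 and 4 in controls (0.23 ± 0.17, adjusted p = 0.586). For both mucosal keratins the genotypes overlapped on these probe sets.

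Type II and type I partners were set side by side within litters, as the difference between their log2 changes. With 3 litters an exact two-sided sign-flip permutation test cannot give a p under 0.25, so these differences are descriptions. For Krt5 minus Krt14 the difference was -0.00, -0.17 and -0.02 in litters A, B and C (mean -0.06 ± 0.093, SD). Both partners stayed near 0 in every litter. For Krt1 minus Krt10 it was 0.37, -0.41 and 0.68 (mean 0.21 ± 0.57): Krt1 had the smaller decrease in litters A and C and the larger in litter B. For Krt77 minus Krt10 it was 0.70, 0.98 and 1.14 (mean 0.94 ± 0.22), the smaller decrease lying with Krt77 in all 3 litters. The low brightness of Krt77 bears on that value, which was 0.67 with a pseudocount of 1. Krt2 minus Krt10 (mean 1.68 ± 0.30) and Krt4 minus Krt13 (mean -0.10 ± 0.69) rest on at least 1 gene under 16 on all arrays. Exact p was 0.25 for the pairs Krt5 and Krt14, Krt2 and Krt10, and Krt77 and Krt10, which is the smallest possible, and 0.75 for the other 2 of the 5 pairs. Adjusted over the 5 pairs, none could pass.

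**Figure D4:**
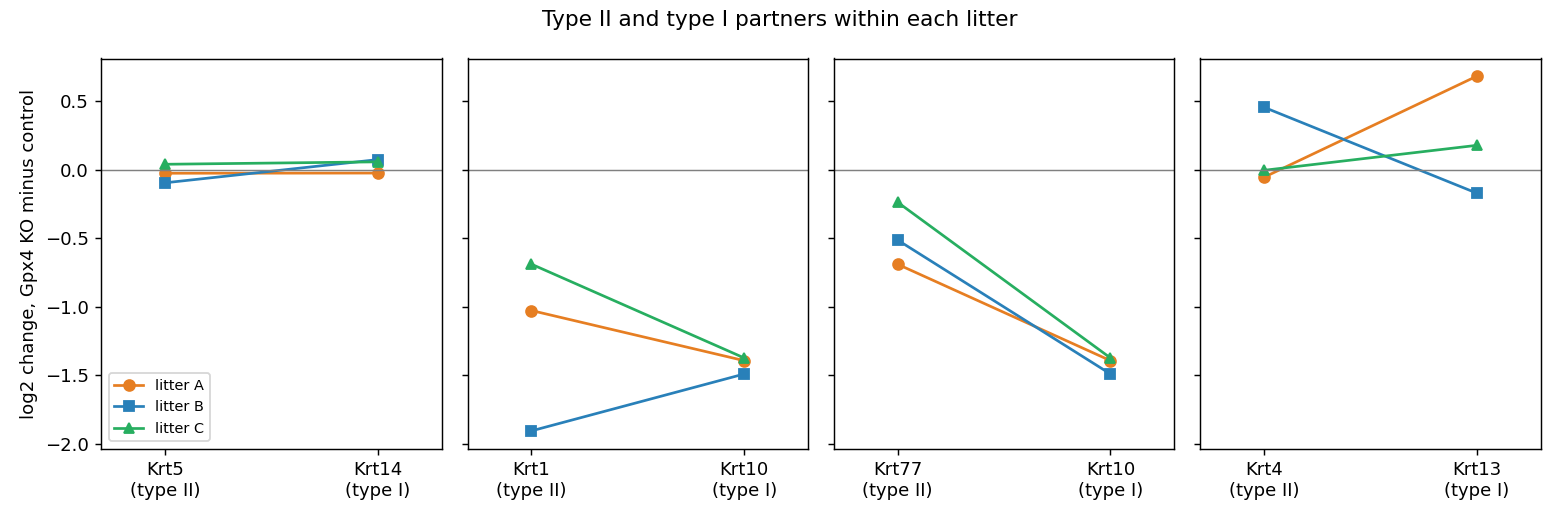
Log2 change (Gpx4 KO minus control, vertical axis) of a type II keratin and a type I partner, joined by a line within each litter (A, B and C). Krt5 and Krt14 lie together near 0. Krt1 and Krt10 are both below 0, with lines that draw together from Krt1 to Krt10 and keep their order.

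Other genes of the suprabasal programme were followed to place Krt1 and Krt10 among them. Of 23 measured genes of cornified envelope, barrier and upper desmosome, 1 fell and none rose. Over all probe sets 0.262% fell and 0.158% rose. Of the 23, 8 reached an unadjusted p under 0.05, beside 14.6% of all probe sets. The log2 change was negative for 15 and positive for 8 of them, with a median of -0.16, beside 0.0018 over all probe sets. The summed intensity of the 23 genes was 9926 to 11766 in KO arrays, against 9815 to 20656 in controls. The control of litter A gave the 9815, and the control of litter C alone gave the 20656. Named after their values were seen, Asprv1 (0.32, 0.02 and -1.75 in litters A, B and C) and Elovl4 (0.54, 0.03 and -0.84) were lower in litter C alone. Dsg1a, in contrast, was lower in every litter (-0.97, -0.94 and -0.30). Tgm5, a transglutaminase that crosslinks envelope proteins, read 28, 41.2 and 15 in KO pools of litters A, B and C, against 109, 132.65 and 55.8 in controls (-1.36 ± 0.14, adjusted p = 0.0341). The groups did not overlap. It passed in 6 of the 17 alternatives. The desmosomal cadherins Dsc1 (-1.07 ± 0.19, adjusted p = 0.0798) and Dsg1a (-0.74 ± 0.15, adjusted p = 0.101) and the calmodulin-like Calm4 (-1.12 ± 0.22, adjusted p = 0.0968) did not pass. Calm4 was 504 to 1031 in KO pools, against 889.7, 1228 and 3785 in controls A, B and C, so the control of litter C was high for Calm4 and low for Krt1. Among the genes with a positive change, Tgm1, a transglutaminase of the envelope (1.01 ± 0.29), and the envelope protein Lor (0.39 ± 0.15), both named after their values were seen, had KO values above all control values and did not pass (adjusted p = 0.196 and 0.304). With litter C left out, 3 of the 23 genes rose and 4 fell, beside 3.01% of all probe sets that rose and 3.15% that fell. With a common median or without the 40% dimmest probe sets 4 of the 23 fell, and with a pseudocount of 1 it was 2. Over all probe sets, 512 of 45037, 609 of 27022 and 330 of 45037 fell in these settings.

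Keratin filaments hold cells together through plakins, desmosomes and hemidesmosomes, and 18 genes of these anchors and of proteins that associate with keratins were measured. None passed in limma, and 5 had an unadjusted p under 0.05, beside 14.6% of all probe sets. Of the 18, 14 had a negative log2 change (median -0.14, -0.32 as deposited). Trim29, known from human keratinocytes as a keratin-associated protein, read 2005, 1874 and 1608 in KO pools, against 2637, 3116 and 2422 in controls (-0.57 ± 0.087, adjusted p = 0.0645). The desmosomal cadherin Dsg2 (-0.54 ± 0.12, adjusted p = 0.119) and the plakins Plec (-0.38 ± 0.11, adjusted p = 0.1998) and Dst (-0.25 ± 0.074, adjusted p = 0.2099), which tie filaments to hemidesmosomes, did not pass either. For these 4 genes, named for the smallest p of the list, all KO values were below all control values, as for 9.43% of all probe sets. With litter C left out, 5 of the 18 fell and none rose, where 3.15% of all probe sets fell and 3.01% rose. With a pseudocount of 1, or without the 40% dimmest probe sets, 1 of the 18 fell. Over all probe sets, 330 of 45037 and 609 of 27022 fell in these settings.

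Among 30 measured transcription factors and receptors that act on epidermal keratin genes or on differentiation, none passed in limma. Of the 30, 13 had an unadjusted p under 0.05, beside 14.6% of all probe sets, and 21 had a negative log2 change (median -0.12, -0.28 as deposited). Vdr, the vitamin D receptor, read 163, 147 and 143 in KO pools, against 324, 312 and 227 in controls, without overlap (-0.85 ± 0.12, adjusted p = 0.0514). Maf, a transcription factor of human epidermal differentiation, read 313, 283 and 189 in KO pools, against 1115, 979.54 and 296 in controls (-1.37 ± 0.23, adjusted p = 0.0759). Its values overlapped, since the control of litter C was again low, as for Krt1. Notch1, a receptor that promotes suprabasal fate, had a log2 change of -0.60 ± 0.095 (adjusted p = 0.0678), and Trp63, the master regulator of stratified epithelia, had one of -0.43 ± 0.076 (adjusted p = 0.0816). Notch1 overlapped too, with the KO pool of litter A at 872 and the control of litter C at 814. Of the 30, 9 had KO values below all control values, beside 9.43% of all probe sets. For 2, Tfap2c (0.53 ± 0.13) and Ppard (0.70 ± 0.19), named after their values were seen, all KO values were above all control values. With litter C left out, 3 of the 30 rose and 10 fell, and Vdr (adjusted p = 0.0034), Maf, Notch1 and Trp63 were among the 10, where 3.01% of all probe sets rose and 3.15% fell. With litter C in, 2 of the 30 fell with a common median, 3 with a pseudocount of 1 and 4 without the 40% dimmest probe sets. Over all probe sets, 512 of 45037, 330 of 45037 and 609 of 27022 fell in these settings.

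Of 38 other keratin genes on the array, 20 were under 16 on all 6 arrays. Of the 38, 1 fell and none rose, beside 0.262% of all probe sets that fell and 0.158% that rose. The gene that fell was the follicular keratin Krt79, named after its values were seen (-2.05 ± 0.23, adjusted p = 0.0371).

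The cultures held RNA of other cells, and some of it moved with genotype. Of 13 measured keratinocyte markers, Krt5 and Krt14 included, none was under 16 on all arrays and none passed the test. Their summed intensity was 36908 to 38255 in KO arrays, against 36802 to 40323.4 in controls. All 10 melanocyte markers had a positive log2 change and 2 of them rose, Tyrp1 and Mlana, beside 0.158% of all probe sets. The 10 summed to 6654 to 7333 in KO arrays, against 4810 to 4939 in controls. The 12 fibroblast markers summed to 1449 to 1768 in KO arrays, against 590 to 1359 in controls, with none passing. The control of litter C gave the 1359. Vim alone read 836 to 1038 in KO arrays, against 196 to 616 in controls, and 5 of the 12 had a negative log2 change, among them Postn (-1.30 ± 0.23) and Fbln1 (-0.52 ± 0.13), whose KO values were below all control values. Endothelial markers summed to 67.8 to 74.6 in KO arrays, against 57.7 to 82.8 in controls, with Pecam1, Cdh5, Tek, Tie1 and Emcn under 16 on all arrays. Immune markers summed to 160.1 to 238 in KO arrays, against 136 to 204 in controls, with Ptprc, Cd207 and Cd3e under 16 throughout. Merkel cell markers summed to 103 to 149.6 in KO arrays, against 81 to 90.9 in controls, with Krt20, Sox2 and Chga under 16 throughout. None of these 8 markers passed, and 2 had a negative log2 change. The sums differed mainly through Krt18 (mean 37.3 in KO arrays, 17.5 in controls) and Piezo2 (17.9 and 7.28), while Krt20 (7.51 and 7.24) differed little. Genes of the Y chromosome differed as well: the Y-linked Eif2s3y read 3.18, 0.67 and 4.62 in KO pools, against 155, 178 and 185 in controls. All 3 measured Y-linked genes fell, beside 0.262% of all probe sets. The part of these differences in the fall of Krt10 was not tested, and sex and genotype cannot be told apart in these pools.

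Genes with a pattern like that of Krt10 were sought by Pearson correlation over the 6 arrays among 6201 genes with a mean intensity of at least 100. The 5 closest were Scamp1, a membrane protein of secretory carriers (r = 0.998), Cenpf, a kinetochore protein (0.995), the proton pump subunit Atp6v1e1 (0.991), the pyrophosphate transporter Ank (0.991) and the signalling adaptor Gab1 (0.990). All 5 had KO values below all control values, as had 9.43% of all probe sets. This follows largely from their choice by likeness to Krt10, whose groups did not overlap. Their log2 changes were -0.22, -0.41, -0.28, -0.83 and -0.57, each smaller than that of Krt10, and Ank passed (adjusted p = 0.0371; 6 of the 17 alternatives, and 0.217 as deposited). The change of Atp6v1e1 turned to 0.0754 with the mean of its probe sets in place of the brightest. Gab1 did not pass (adjusted p = 0.082) but did without litter C (-0.63, adjusted p = 0.0165), with a pseudocount of 1 and without the 40% dimmest probe sets. For Krt5, whose arrays differed little, the 5 closest were Cdc37l1, Zc3h4, Snrnp40, Pex14 and Plekhn1 (r = 0.977 to 0.988), with log2 changes between -0.25 and -0.06 and none passing. The 6 arrays share litters and genotypes, so these coefficients are descriptions.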

How the data were processed

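Total RNA of 6 keratinocyte pools was hybridised to 1-colour Affymetrix arrays; per the labels' protocols, RNA was extracted with Trizol and labelled with biotin by in vitro transcription. The deposited table holds 1 linear intensity for each of 45101 probe sets and each array. Background correction, probe summary and scaling by the authors are not stated in the labels. After 64 control probe sets were left out, quantile normalization brought the 6 arrays to a common distribution, and log2(intensity + 16) was tested with limma 3.58.1 in R 4.3.3 (lmFit, eBayes with intensity trend), with litter as a block because the design compares pools of the same litter. Litter, named in the labels, pairs the arrays; residuals of same-litter arrays correlated at r = 0.17 (A), 0.047 (B) and 0.21 (C). The labels call the arrays biological replicates. The number of arrays limits the precision.

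Symbols came from the platform annotation of the probe sets: 34945 named a single gene, 932 named more than 1, and 9160 had no entry. Genes were represented by their brightest probe set. The steps were tested on simulated arrays. The keratins, gene lists, scaling and settings were chosen with earlier results of these data known. Genes were named by a rule: the 10 keratins, Gpx4, Eif2s3y, the passing genes and the 4 with the smallest p of each of 3 lists, and the 5 genes most like Krt10 and Krt5. Alternatives changed the scaling, the pseudocount (1 or 64), the filter on dim probe sets, the block, the variance trend, the probe set used and the arrays included.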

Additional observations from a re-analysis of the deposited data

How the results depend on the processing

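Over all 45037 probe sets, 189 passed, 71 higher and 118 lower (37.6% higher). Scaled as deposited, 35 passed (8.57% higher), and with the arrays shifted to a common median 710 passed (27.9% higher); the median of all probe sets was then -0.066 and -0.0071. There were 601 calls with a pseudocount of 1, 59 with 64, 1130 without the 40% dimmest probe sets (fewer probe sets were tested), 16 genes with the mean of a gene's probe sets and 6 without the trend. Without the replicate block for litter 135 probe sets passed, and Krt10 kept its call (adjusted p = 0.011), whereas Tgm5 did not pass (adjusted p = 0.13). Leaving out a litter or an array gave 0 to 2773 calls (0 by limma without litter B, with 3700 at an unadjusted p under 0.05; 3 without litter A; 2773 without litter C; 2430 without the control array of litter C alone). Of the 10 keratins, 0 passed as deposited or without the trend, 2 (Krt10 and Krt1) with a common median, with a pseudocount of 1 or without the dimmest probe sets, and 0 to 2 when a litter or an array was omitted. Krt2 minus Krt10 was 2.87 with a pseudocount of 1 and 1.35 with 64, and Krt77 minus Krt10 was 0.67 with 1. Signs turned for Krt14 (-0.117 as deposited, -0.0576 with a common median, -0.0054 with the mean of its probe sets) and, without litter B, for Krt5, Krt4, Cdc37l1, Zc3h4 and Snrnp40. With a litter or an array omitted these ranged from -0.0609 to 0.0066 (Krt5), from -0.0302 to 0.225 (Krt4), from -0.148 to 0.0282 (Cdc37l1), from -0.298 to 0.033 (Zc3h4) and from -0.405 to 0.0152 (Snrnp40). The mean of a gene's probe sets gave -0.091 for Krt4, 0.0754 for Atp6v1e1 and 0.0046 for Zc3h4. Of 168 recomputed keratin values 149 kept their sign and side of the threshold. The causes were not tested. The dim probe sets of Krt2, Krt4, Krt13 and Krt77 limit what their values show.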
